A study of Homo sapiens with 12 samples.

Results

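Angiotensinogen (AGT), the angiotensin II type 1 receptor (AGTR1) and 5 peptidases that make or break down angiotensin peptides (ACE, ENPEP, ANPEP, MME and CTSD) were followed through YAP silencing and erastin treatment of RCC4 cells. The 7 genes were chosen on earlier results of these same arrays, in which AGT stood out by its higher signal after YAP silencing, together with its receptor and peptidases. All their probe sets were taken, which gave 10 of the 22215 probe sets and 7 of the 11963 genes on the array. AGT, ACE, ANPEP and CTSD had 1 probe set each, and AGTR1, ENPEP and MME had 2 each. Because the choice used the silencing contrasts, changes with silencing are described for these genes without a test. The erastin changes of AGT, which share arrays with them, are described in the same way. Erastin contrasts of the other members share these arrays as well, so their p-values are given only as a description.

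RCC4 is an established clear cell renal carcinoma line known for its loss of the VHL tumour suppressor. Cells received siRNA for 2 days and then erastin or its vehicle for 7 hours, and total RNA was hybridised to single-channel Affymetrix arrays. Erastin, an inhibitor of the cystine-glutamate exchanger used to trigger ferroptosis, was given at 1 µM. The 4 groups of 3 arrays were siRNA against YAP with erastin (siYAP erastin), siRNA against YAP with DMSO (siYAP DMSO), non-targeting siRNA with erastin (siNT erastin) and non-targeting siRNA with DMSO (siNT DMSO). All 4 groups are 1 transfected line, so no group was free of siRNA, and whether the YAP siRNA was a single duplex or a pool is not given in the sources used here.

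In the classical pathway, the secreted serpin angiotensinogen is cut to release angiotensin I, and angiotensin-converting enzyme (ACE) trims this to angiotensin II, which acts on vessels, the adrenal and the nephron through AGTR1. Aminopeptidase A (ENPEP) and aminopeptidase N (ANPEP) shorten angiotensin II from its amino end to angiotensin III and then angiotensin IV. Neprilysin (MME, also CD10) cleaves angiotensin I and other vasoactive peptides, and cathepsin D (CTSD) is a lysosomal aspartic protease that can release angiotensin I in vitro. Liver is the main source of angiotensinogen, and the kidney proximal tubule, from which clear cell carcinoma is thought to arise, carries ENPEP, ANPEP and MME on its brush border.

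Promoter windows are shown for AGT, the gene with the largest change, and for ENPEP and MME, each of whose probe sets lay apart between siYAP and siNT arrays in both treatments. They are RefSeq sequences on GRCh38.p14, from 250 bases before to 50 bases after an annotated start, 5′ to 3′ on the gene's strand. Capitals mark each TATAAA, the letters of the TATA box, on either strand, so that a reverse match reads TTTATA. They also mark each GGAATG, the core of the motif bound by TEAD factors, through which YAP reaches DNA, and its reverse, CATTCC. The AGT window is chr1:230714073-230714372 on the minus strand, the ENPEP window is chr4:110475905-110476204 on the plus strand, and the MME window, the most upstream of 4 annotated starts, is chr3:155079422-155079721 on the plus strand.
AGT: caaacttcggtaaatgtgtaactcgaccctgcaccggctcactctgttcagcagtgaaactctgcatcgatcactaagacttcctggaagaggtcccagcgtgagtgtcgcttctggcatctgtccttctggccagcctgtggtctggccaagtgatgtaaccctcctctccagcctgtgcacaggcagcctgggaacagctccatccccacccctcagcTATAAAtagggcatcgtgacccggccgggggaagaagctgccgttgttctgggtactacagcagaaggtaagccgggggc
ENPEP: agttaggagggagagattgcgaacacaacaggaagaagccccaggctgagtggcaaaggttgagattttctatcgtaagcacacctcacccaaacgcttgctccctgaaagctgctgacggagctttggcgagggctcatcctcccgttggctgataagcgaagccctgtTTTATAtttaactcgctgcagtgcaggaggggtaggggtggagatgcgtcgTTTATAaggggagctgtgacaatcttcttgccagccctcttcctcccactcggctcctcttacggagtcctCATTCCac
MME: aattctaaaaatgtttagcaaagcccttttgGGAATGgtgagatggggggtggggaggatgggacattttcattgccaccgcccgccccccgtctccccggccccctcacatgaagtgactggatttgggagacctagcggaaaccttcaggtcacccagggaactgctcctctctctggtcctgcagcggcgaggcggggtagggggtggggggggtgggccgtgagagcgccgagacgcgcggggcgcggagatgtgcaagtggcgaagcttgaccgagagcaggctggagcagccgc

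The AGT window held 1 TATAAA, 30 bases before the start, and no GGAATG. The ENPEP window held 2 matches to TATAAA, the nearer 29 bases before the start, and 1 GGAATG, read on the reverse strand just after the start. The MME window held 1 GGAATG near its upstream end and no TATAAA, and the windows of the 3 other MME starts held neither. Over all 35116 promoter windows of this length in the table, TATAAA was found in 11.5%, GGAATG in 14% and the AP-1 motif TGANTCA, searched on both strands and overlapping neither of the others in letters, in 7.71%, the last being absent from all 3 windows shown. Such matches describe the letters only. Windows were found for 6 of the 7 genes, with 2 for ACE, 2 for ANPEP and 1 for CTSD.

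The deposited RMA values are log2 signals between 2.02 and 14.4, and 1 unit is a doubling of signal. Array medians lay between 6.49 and 6.52, and correlations within a group were 0.996 to 0.999. The YAP1 probe set 213342_at, which checks the siRNA labels, read 4.68, 6.21 and 4.90 in siYAP erastin cells and 4.18, 4.88 and 4.81 in siYAP DMSO cells, against 8.47, 8.52 and 8.65 in siNT erastin cells and 8.55, 8.59 and 8.47 in siNT DMSO cells. Array 2 of siYAP erastin kept more YAP1 signal than the other siYAP arrays, and silencing values under erastin are also given without it. The 8 measured markers of renal epithelium and clear cell carcinoma had a median level of 10.3 in each group. Of these 8, limma called 3 higher and 2 lower after silencing in each treatment, among them CA12 (1.04 in DMSO and 1.25 under erastin), PAX2 (0.37 and 0.65) and KRT18 (-0.35 and -0.45), and their part in the results was not tested. The 5 hepatocyte markers had medians of 4.58, 4.75, 4.36 and 4.25 in siYAP erastin, siYAP DMSO, siNT erastin and siNT DMSO cells, and none of them was called in any comparison. The 3′ over 5′ log2 difference of the ACTB control probe sets, a measure of RNA integrity, averaged 3.54 in siYAP erastin, 2.59 in siYAP DMSO, 2.26 in siNT erastin and 2.68 in siNT DMSO cells. Its siYAP erastin arrays (3.35 to 3.705) lay above those of siYAP DMSO (1.49 to 3.145), siNT erastin (1.49 to 2.82) and siNT DMSO (2.40 to 2.97). The same difference of GAPDH averaged 0.17, 0.22, 0.15 and 0.18 in the same order of groups. The part of either in the results was not tested.

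AGT signal was 4.58 to 6.54 times as high after YAP silencing as in siNT cells, depending on treatment. With silencing and erastin, AGT (probe set 202834_at) read 9.65, 9.40 and 9.53, against 7.31, 7.33 and 7.35 in siNT erastin cells. With silencing and DMSO it read 9.63, 9.51 and 9.47, against 6.67, 7.02 and 6.79 in siNT DMSO cells. In both treatments each siYAP array lay above each siNT array, the lowest siYAP array being 9.40 and the highest siNT array 7.35. The siYAP minus siNT difference was 2.71 (SE 0.0898) in DMSO, a 6.54-fold higher signal, and 2.19 (SE 0.0898) under erastin, a 4.58-fold higher signal. In the measure the study's design describes, each siYAP array minus the mean of the siNT arrays, AGT gave 2.80, 2.68 and 2.65 in DMSO and 2.32, 2.07 and 2.20 under erastin. Without array 2 of siYAP erastin the difference under erastin was 2.26.

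The group means of AGT ran, from high to low, through siYAP DMSO (9.54 ± 0.0836), siYAP erastin (9.52 ± 0.125), siNT erastin (7.33 ± 0.0184) and siNT DMSO (6.83 ± 0.177; SD, n = 3 each). The 2 siYAP groups overlapped and did not differ beyond their spread, while the 2 siNT groups did not overlap. Erastin left AGT at a log2 difference of -0.01 from DMSO in siYAP cells (SE 0.0898), with overlapping arrays. In siNT cells AGT differed by 0.50 (SE 0.0898, 1.42-fold), with all 3 erastin arrays above all 3 DMSO arrays. Both differences use DMSO arrays of the contrast by which AGT was chosen, so no test of them is given.

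Left out in turn, the 12 arrays gave erastin minus DMSO differences of AGT in siNT cells between 0.43 and 0.60, the lowest without siNT DMSO array 1. The erastin response of AGT in siYAP cells minus that in siNT cells was -0.52 (SE 0.127), also given as a description.

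**Figure D1:**
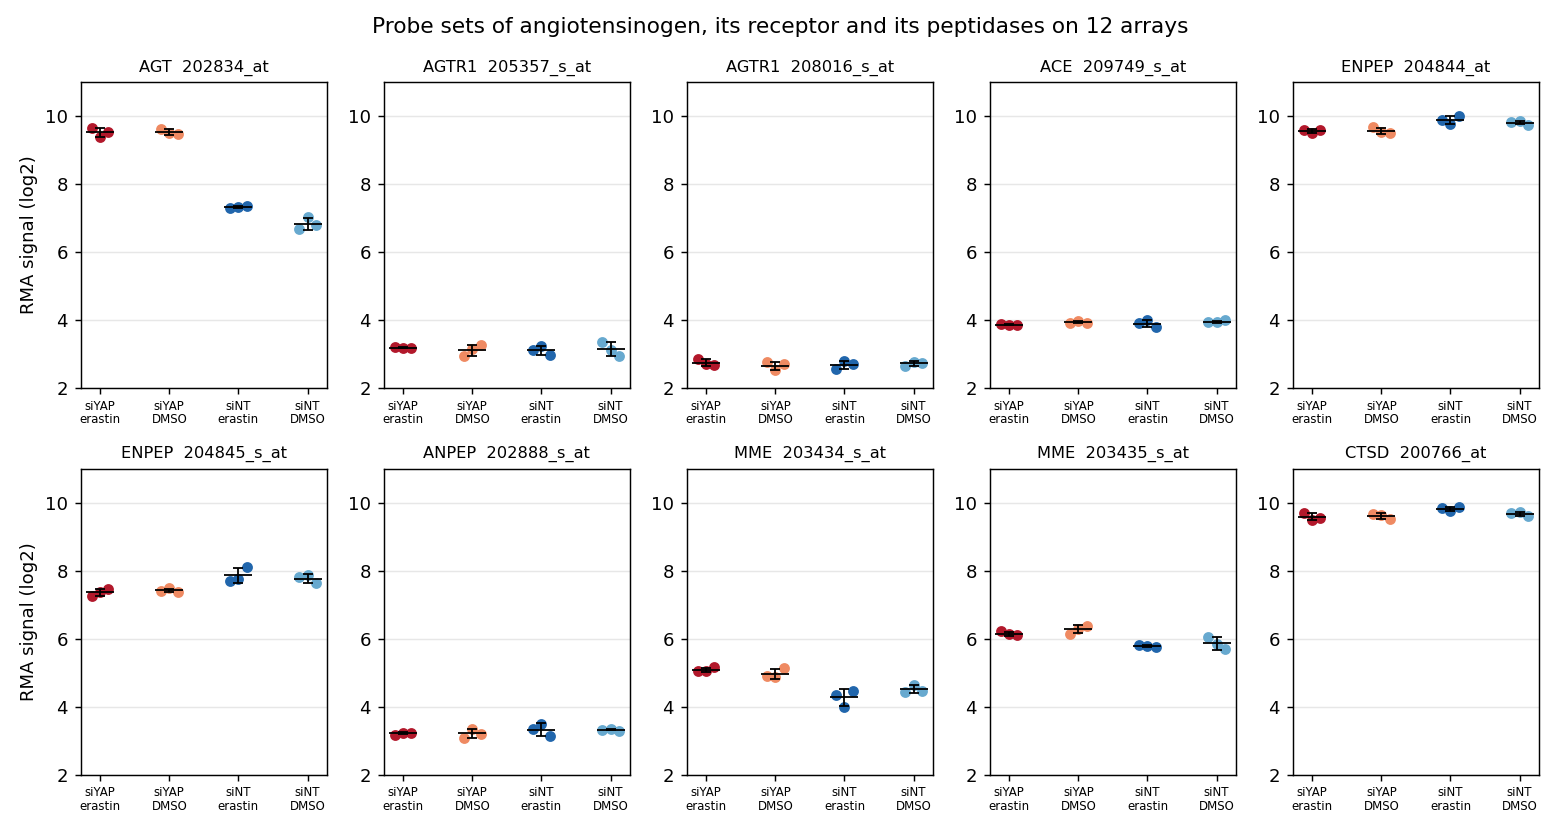
RMA signal (log2, vertical axis) of the 10 probe sets on each of the 12 arrays, in the order siYAP erastin, siYAP DMSO, siNT erastin, siNT DMSO; dots are arrays, the horizontal mark is the group mean and the bar its SD (n = 3). AGT lies between 9.40 and 9.65 on the 6 siYAP arrays and between 6.67 and 7.35 on the 6 siNT arrays, while AGTR1, ACE and ANPEP stay below 4 on every array.

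The enzymes that can release angiotensin I or turn it into angiotensin II differed little between groups. CTSD (200766_at) read 9.71, 9.51 and 9.55 in siYAP erastin cells and 9.68, 9.64 and 9.53 in siYAP DMSO cells, against 9.86, 9.75 and 9.87 in siNT erastin cells and 9.70, 9.73 and 9.62 in siNT DMSO cells. The siYAP and siNT arrays overlapped in DMSO, with a difference of -0.06 (SE 0.0695), and lay apart under erastin, where siYAP was lower by 0.24 on the log2 scale (SE 0.0695, 1.18-fold). Without array 2 of siYAP erastin that difference was -0.20. CTSD was 0.14 higher with erastin in siNT cells, arrays not overlapping, but was not called (limma adjusted p = 0.599). Its erastin difference in siYAP cells was -0.03 (limma adjusted p = 0.918). Both p-values are a description only.

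ACE (209749_s_at) lay between 3.79 and 3.99 on all 12 arrays, at the 16.3th percentile of probe set means. Its siYAP minus siNT difference was -0.02 (SE 0.0583) in DMSO and -0.03 under erastin, with overlapping arrays. In siYAP cells ACE read 3.87, 3.86 and 3.86 with erastin and 3.92, 3.97 and 3.91 with DMSO. These arrays did not overlap. The difference was -0.07 and was not called (limma adjusted p = 0.737, a description only).

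ENPEP, the aminopeptidase that makes angiotensin III, had lower signal with silencing, without overlap within a treatment, in both of its probe sets. The brighter probe set, 204844_at, read 9.61, 9.51 and 9.61 in siYAP erastin cells and 9.67, 9.54 and 9.51 in siYAP DMSO cells, against 9.90, 9.78 and 10.01 in siNT erastin cells and 9.84, 9.85 and 9.76 in siNT DMSO cells. Its siYAP minus siNT difference was -0.24 (SE 0.0714) in DMSO, 1.18-fold lower, and -0.32 under erastin, 1.25-fold lower. The same order held in probe set 204845_s_at, which read 7.26, 7.37 and 7.48 in siYAP erastin cells and 7.42, 7.48 and 7.38 in siYAP DMSO cells, against 7.72, 7.77 and 8.12 in siNT erastin cells and 7.81, 7.88 and 7.64 in siNT DMSO cells. There the difference was -0.35 (SE 0.104) in DMSO, 1.27-fold lower, and -0.50 under erastin, 1.41-fold lower. Without array 2 of siYAP erastin the differences under erastin were -0.29 and -0.50.

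ANPEP (202888_s_at), the next aminopeptidase in the chain, lay between 3.08 and 3.49 on the 12 arrays, at the 8.69th percentile. Its siYAP minus siNT difference was -0.11 in each treatment (SE 0.0897), with overlapping arrays. Signals of ANPEP, ACE and AGTR1 were all so low that a change in them could be compressed toward 0.

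MME, the only peptidase of the 5 with higher signal on all siYAP arrays, showed this in both of its probe sets and both treatments. Probe set 203434_s_at read 5.05, 5.06 and 5.16 in siYAP erastin cells and 4.91, 4.87 and 5.14 in siYAP DMSO cells, against 4.36, 3.99 and 4.47 in siNT erastin cells and 4.45, 4.65 and 4.46 in siNT DMSO cells. The siYAP minus siNT difference was 0.45 (SE 0.114, 1.37-fold) in DMSO and 0.82 (1.76-fold) under erastin. The second, brighter probe set, 203435_s_at, read 6.22, 6.13 and 6.11 in siYAP erastin cells and 6.15, 6.30 and 6.39 in siYAP DMSO cells, against 5.82, 5.78 and 5.76 in siNT erastin cells and 6.06, 5.84 and 5.70 in siNT DMSO cells. Here the difference was 0.41 (SE 0.0886, 1.33-fold) in DMSO and 0.37 (1.29-fold) under erastin. Without array 2 of siYAP erastin the differences under erastin were 0.83 and 0.38.

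The 2 MME probe sets gave different signs for the change of the erastin response with silencing. It was 0.36 (SE 0.162) in 203434_s_at and -0.05 (SE 0.125) in 203435_s_at. Neither was called (limma adjusted p = 0.547 and 0.935, a description only). Erastin changed 203434_s_at by 0.12 in siYAP cells (limma adjusted p = 0.77) and by -0.24 in siNT cells (limma adjusted p = 0.584).

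AGTR1, the main angiotensin II receptor, showed no separation between groups. Probe set 205357_s_at lay between 2.94 and 3.36 and probe set 208016_s_at between 2.51 and 2.86 on the 12 arrays, at the 7.12th and 2.49th percentiles of probe set means. Their siYAP minus siNT differences were -0.02 (SE 0.109) and -0.07 (SE 0.083) in DMSO and 0.08 and 0.05 under erastin, with overlapping arrays throughout.

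**Figure D2:**
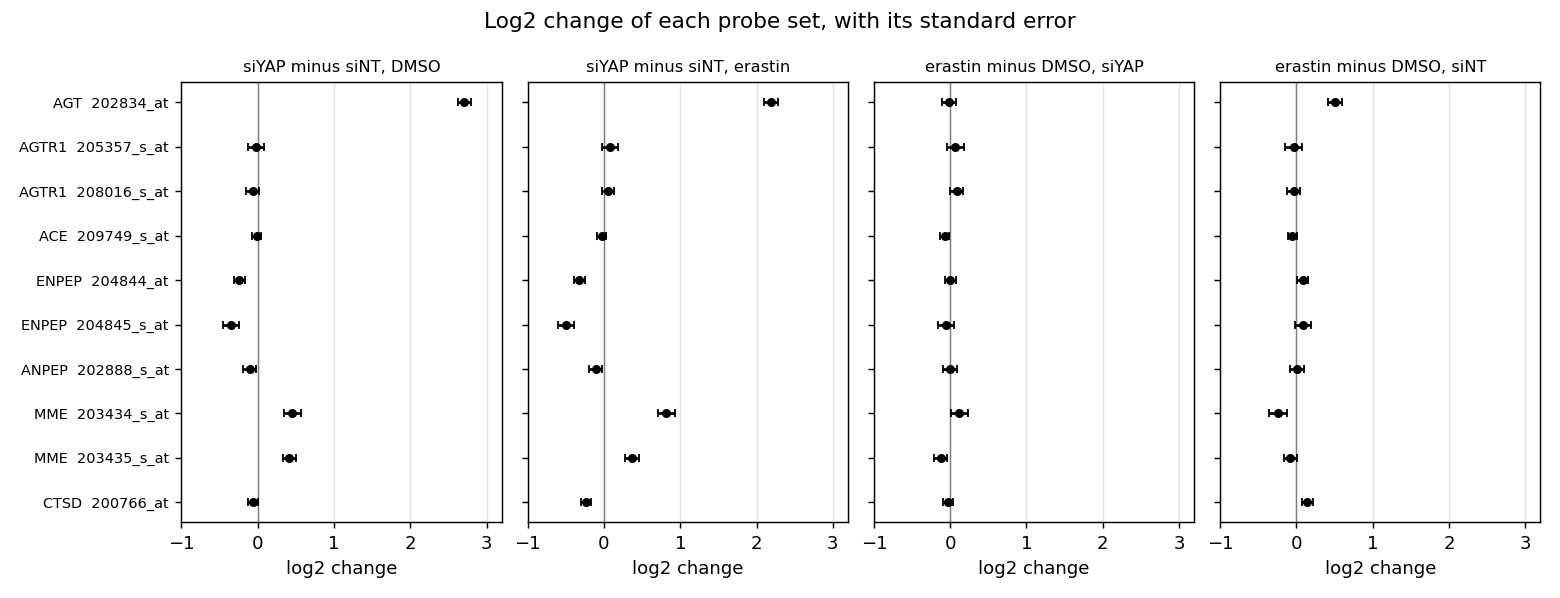
Log2 change of each of the 10 probe sets (rows) in the 4 comparisons between groups (panels), with the standard error from limma as the bar. AGT stands at 2.71 and 2.19 in the silencing panels, the ENPEP probe sets lie below 0 and the MME probe sets above 0 there, and in the erastin panels AGT in siNT cells lies at 0.50.

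Set against all probe sets, the members with arrays apart were counted as follows. In DMSO, 3 of the 10 member probe sets (AGT and both of MME) were higher on all siYAP arrays, where 21.8% of all probe sets were, and 2 (both of ENPEP) were lower, where 18.9% were. Under erastin 3 were higher, against 21.7% of all probe sets, and 3 were lower, with CTSD added, against 18.5%. Since silencing chose the members, nothing is read from these counts. The median change of the 10 member probe sets was -0.04 in DMSO and 0.01 under erastin, and that of all probe sets was 0.02 and 0.00.

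The erastin contrasts of the 9 member probe sets other than AGT were run through limma. Their arrays also served the silencing contrasts used for the choice, so nothing is read from these p-values. In siYAP cells limma called 0 of the 9 at adjusted p under 0.05, against 0.171% of all probe sets. Of all 22215 probe sets 2201 had an unadjusted limma p under 0.05, and 0 of the 9 did. The smallest limma adjusted p among the 9 was 0.671, for MME 203435_s_at. Arrays did not overlap in 1 of them, ACE, which was lower, where 10.4% of all probe sets were lower and 10.6% higher in this way. In siNT cells limma called 0 of the 9, against 0.297% of all probe sets. An unadjusted limma p under 0.05 was found in 1947 of all 22215 probe sets and in 0 of the 9. Arrays lay apart with erastin higher in 1 of the 9, CTSD, against 5.34% of all probe sets, and with erastin lower in none, against 7.09%. The difference between both erastin responses was called in 0 of the 9 by limma and in 0% of all probe sets. For it, 1 of the 9 (MME 203434_s_at) had an unadjusted limma p under 0.05, as did 2005 of all 22215 probe sets.

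Among the pathway's other genes, the largest called change after silencing was -0.63, in THOP1. Of 20 further angiotensin pathway genes listed, 14 were measured and the others were not analysed here. This list and those below were drawn up with earlier results of these data known, so their p-values are given as a description. None of the 14 was called higher after silencing, 2 were called lower in DMSO and 1 was called lower under erastin. THOP1, thimet oligopeptidase, which cleaves angiotensin I, averaged 7.20 ± 0.093 in siYAP DMSO cells and 7.83 ± 0.0379 in siNT DMSO cells (SD, n = 3 each), a difference of -0.63 (limma adjusted p = 1.8e-05). It also fell under erastin, by 0.49 on the log2 scale (limma adjusted p = 0.00014). RNPEP, aminopeptidase B, fell by 0.20 in DMSO (limma adjusted p = 0.0379) and had a difference of -0.18 under erastin (limma adjusted p = 0.0569). The median change of the 14 was 0.05 in DMSO and -0.05 under erastin, against 0.02 and 0.01 over all genes.

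Among 11 genes of aldosterone and kinin signalling, 1 was higher in DMSO, 3 were higher under erastin and 0 were lower. SGK1, the aldosterone-induced kinase that raises sodium channel activity, averaged 11.42 ± 0.0734 in siYAP DMSO cells and 10.65 ± 0.067 in siNT DMSO cells, 1.70-fold higher (limma adjusted p = 2.31e-06). Under erastin SGK1 was 0.59 higher, the mineralocorticoid receptor NR3C2 0.40 higher (limma adjusted p = 0.00838) and the bradykinin receptor BDKRB2 0.32 higher (limma adjusted p = 0.0141). In DMSO the differences of NR3C2 and BDKRB2 were 0.24 and 0.19 (limma adjusted p = 0.0962 and 0.125).

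Other peptidases of cell membranes and the endoplasmic reticulum went both ways, with 2 higher and 3 lower of 15 in DMSO and 2 higher and 4 lower under erastin. DPP4, a dipeptidyl peptidase of the proximal tubule brush border, was 0.74 higher in DMSO and 0.61 higher under erastin (limma adjusted p = 1.91e-06 and 9.29e-06). ADAM17, a sheddase of cell-surface proteins, changed by -0.66 in DMSO and -0.54 under erastin (limma adjusted p = 1.3e-05 and 7.18e-05). Carboxypeptidase D, CPD, changed by -0.40 and -0.54, and the endopeptidase PHEX by 0.28 in each treatment (limma adjusted p = 0.0316 in DMSO and 0.0303 under erastin for PHEX).

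The list of lysosomal proteins and aspartic proteases, drawn up around CTSD, counted 6 higher and 1 lower of 20 in DMSO and 5 higher and 2 lower under erastin. Its aspartic proteases BACE1 and BACE2 were not called in DMSO (limma adjusted p = 0.302 and 0.245) or under erastin (limma adjusted p = 0.669 and 0.121). The cathepsins CTSS, CTSO and CTSC were higher by 0.92, 0.79 and 0.73 in DMSO and by 1.05, 0.48 and 0.50 under erastin, each at a limma adjusted p of 0.000859 or less. LAMP2, a lysosomal membrane protein, was 0.61 higher in DMSO in its brightest probe set, but its other probe sets changed by -1.20 and -1.59, so the direction of LAMP2 differed by probe set. The same held under erastin, with 0.64 against -1.38 and -1.44.

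Of 18 measured serpins other than AGT, 6 were higher and 1 lower in DMSO, and 4 were higher and 1 lower under erastin. SERPINE2 (protease nexin) was higher by 0.68 and 0.58, and SERPINF2, the plasmin inhibitor, by 0.62 in DMSO and 0.92 under erastin. SERPINI1, neuroserpin, changed by -0.59 in DMSO and -0.41 under erastin (limma adjusted p = 0.000164 and 0.00239), and SERPINA6, the corticosteroid carrier, by 0.46 and 0.54 (limma adjusted p = 0.00161 and 0.000506). SERPINB9 was 0.49 and 0.44 higher, but none of its other probe sets was called. Its signal was low, averaging 3.80 in siYAP DMSO, 3.31 in siNT DMSO, 3.98 in siYAP erastin and 3.55 in siNT erastin cells.

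Of 13 transcription factors known to act on AGT, 9 were measured. CEBPD, which binds acute-phase promoters, was 0.67 higher in DMSO and 0.53 higher under erastin (limma adjusted p = 2.21e-06 and 1.73e-05). STAT3 was 0.25 higher in DMSO (limma adjusted p = 0.0445) and RELA 0.17 higher under erastin (limma adjusted p = 0.0323), in each case with no other probe set called. In the other treatment STAT3 differed by -0.03 (limma adjusted p = 0.87) and RELA by 0.14 (limma adjusted p = 0.077). The glucocorticoid receptor NR3C1 and CEBPB changed by -0.31 and -0.21 under erastin (limma adjusted p = 0.0059 and 0.0249) and differed by -0.16 and -0.02 in DMSO (limma adjusted p = 0.137 and 0.86). CEBPB was the only listed gene called with erastin, 0.45 higher in siYAP cells (limma adjusted p = 0.0106) and 0.64 higher in siNT cells (limma adjusted p = 0.000651). Its call in siYAP cells did not pass when any of the 3 siYAP erastin arrays, siYAP DMSO array 1 or siYAP DMSO array 2 was left out, nor did its call in siNT cells with only the 6 siNT arrays.

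Over all 6 lists, 24 of 87 measured genes were called after silencing in DMSO, 17 higher and 7 lower, which is 27.6%, against 31.6% of all genes (17% higher and 14.6% lower). Under erastin 26 were called, 16 higher and 10 lower, which is 29.9%, against 33% of all genes (19% higher and 14% lower), and 22 were called without array 2 of siYAP erastin. The shares of the 87 pooled genes called in either direction were near those of all genes. The 7 of 87 called lower in DMSO were a smaller share than the 14.6% of all genes, which was not tested. Single lists differed in their counts. In DMSO 6 of 18 serpins, 6 of 20 lysosomal and aspartic protease genes and 2 of 9 transcription factors were called higher. So were 2 of 15 other peptidases, 1 of 11 aldosterone and kinin genes and 0 of 14 further angiotensin pathway genes. The 6 of 20 include LAMP2, whose direction differed by probe set. Whether a single list differed from all genes was not tested. With erastin 1 of the 87 was called in siYAP cells and 1 in siNT cells, against 0.234% and 0.435% of all genes, and none in the difference between both responses, for which 0% of all genes were called.

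**Figure D3:**
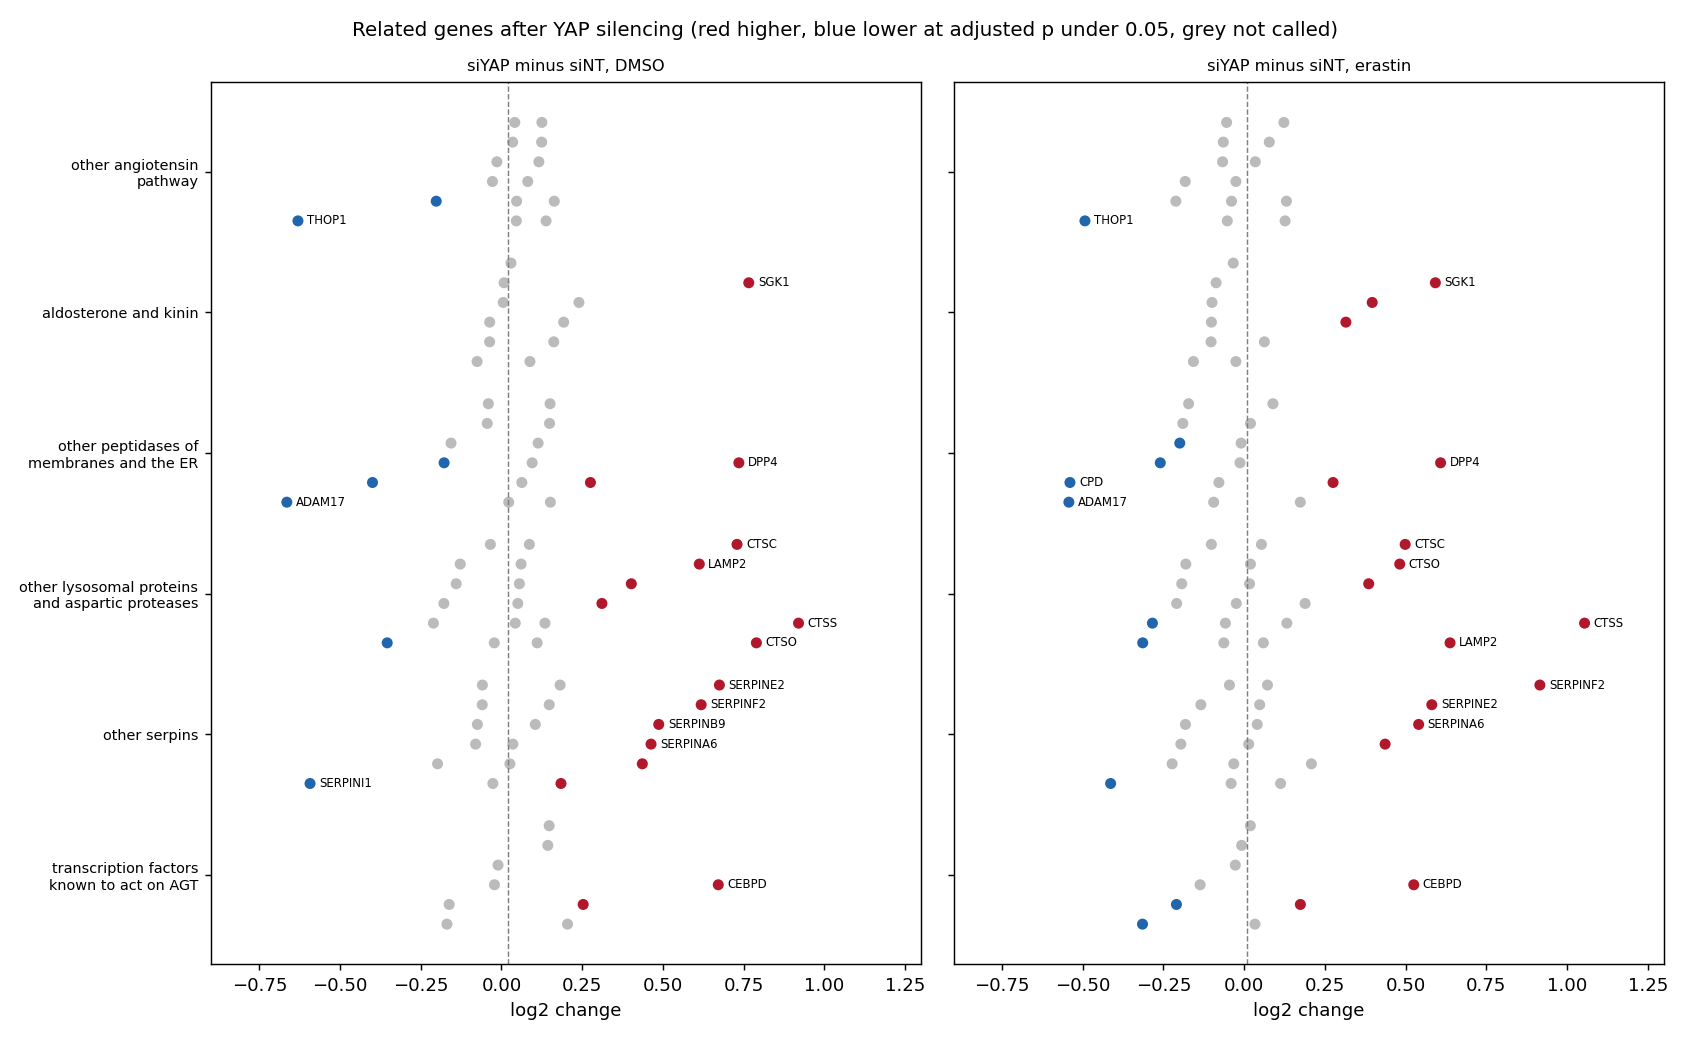
Log2 change after YAP silencing (horizontal axis) of the measured genes of 6 related lists in DMSO (left) and under erastin (right); each point is a gene by its brightest probe set, red and blue are higher and lower at limma adjusted p under 0.05, grey is not called, the dashed line is the median of all genes, and called genes beyond 0.45 are named. CTSS reaches 0.92 and 1.05 and THOP1 lies at -0.63 and -0.49, and LAMP2, in red, went the other way in its other probe sets.

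By the probe set with the highest mean, AGT was the only member whose group means spanned at least 1 log2 unit. Its span was 2.71, against 0.08 to 0.49 in the other 6 genes by that probe set, so the nearest profiles of AGT were looked up. They are the 6 genes with the smallest root mean square difference from AGT over the 12 arrays, after each gene was centred on its own mean. SCN3A, a sodium channel subunit, was nearest at 0.18, followed by CCN3, a matricellular protein, at 0.27, and PTX3, a secreted pentraxin, at 0.30. IFITM1, an interferon-induced membrane protein, lay at 0.32, DESI2, a desumoylating isopeptidase, at 0.38 and SERPINB7, a serpin that the serpin list does not hold, at 0.38.

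Values of these 6 genes stand beside those of AGT as follows. In DMSO the siYAP minus siNT difference was 2.56 in SCN3A, 2.18 in CCN3, 2.12 in PTX3, 2.34 in IFITM1, 1.79 in DESI2 and 1.83 in SERPINB7, against 2.71 in AGT. In siNT cells the erastin difference was 0.07 in SCN3A, 0.11 in CCN3, -0.04 in PTX3, 0.29 in IFITM1, -0.09 in DESI2 and -0.10 in SERPINB7, against 0.50 in AGT. The genes were chosen by likeness over these arrays, so no test is given.

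**Figure D4:**
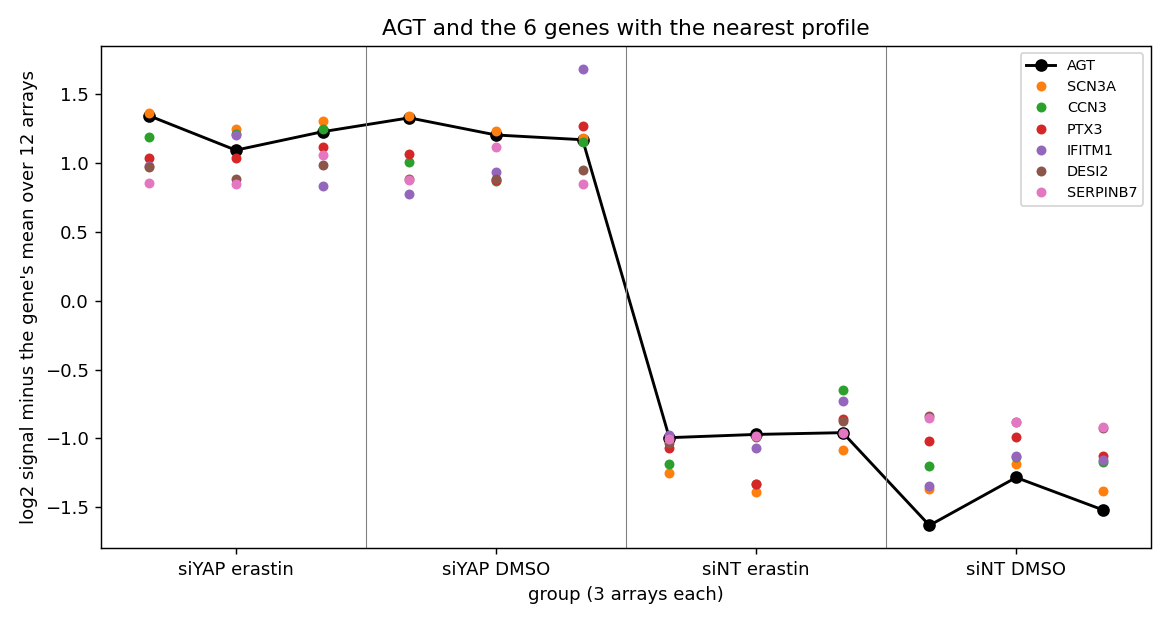
Log2 signal minus the gene's mean over the 12 arrays (vertical axis) for AGT (black, joined) and its 6 nearest genes (coloured), array by array in the order siYAP erastin, siYAP DMSO, siNT erastin, siNT DMSO. All 7 lie above 0 on the siYAP arrays and below 0 on the siNT arrays, and AGT has its lowest values on the siNT DMSO arrays.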

How the data were processed

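Total RNA of 12 RCC4 samples was profiled on single-channel Affymetrix arrays. The deposited values are log2 signals. Per the submitters' processing notes, the authors used RMA in Affymetrix Expression Console, which corrects background, equalises arrays and summarises probe sets, and can compress changes of dim genes. Groups came from the sample titles. No source used here names the array type, genome build or scan dates, and no batch was tested. Of 22277 probe sets, 62 array controls were left out. Symbols came from a platform annotation table, and only probe sets with 1 symbol were named.

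The model was fitted in R 4.3.3 by limma 3.58.1, with 1 mean per group over all 12 arrays, 8 residual degrees of freedom and Benjamini-Hochberg adjustment over all 22215 probe sets in each comparison. All adjusted p-values are limma's, and a probe set at adjusted p under 0.05 was called. Tests of AGT with erastin had been planned but are not reported as results, since the DMSO arrays also served to choose AGT. The labels call replicates biological triplicates without saying how separately they were grown, and p-values cover only the spread among them, which may be technical. A gene in a list was represented by its probe set with the highest mean. Named were all member probe sets, up to 4 called genes per list and comparison by size of change, and the 6 nearest profiles of a member spanning at least 1 log2 unit. Members and lists were chosen with earlier results of these data known. The model code was tested on data with known changes. Alternatives were other scalings, a filter on dim probe sets, other variance models, array weights, fewer arrays, 1 probe set per gene and leaving out each array.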

Additional observations from a re-analysis of the deposited data

How the results depend on the processing

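The erastin difference of AGT in siNT cells was also computed under 20 alternatives. It was 0.5031 with only the 6 arrays compared and with the replicate number as a block. With each array left out it was 0.4264 to 0.6002. Since its arrays did not overlap, leaving an array out could not change its sign, and nothing is read from the sign. Its planned test is not used, because AGT was chosen with arrays of that contrast. The call of that test changed in 13 of the 20, and nothing is read from it. Listed genes called with erastin in siYAP cells numbered 2 with trended and robust variance and 0 to 1 with an array left out, and in siNT cells 0 with only the 6 arrays. Silencing differences of AGT, by which it was chosen, were 2.63 to 2.81 in DMSO and 2.13 to 2.26 under erastin. They are given as a description, and nothing is read from their range. Listed genes called after silencing numbered 19 to 30 in DMSO and 21 to 32 under erastin. Member differences near 0 changed sign between settings, such as AGTR1 205357_s_at after silencing in DMSO, at -0.13 to 0.09. The dim filter removed 5 of the 10 member probe sets, so no values exist there for AGTR1, ACE, ANPEP and MME 203434_s_at, and the interaction has no 6-array fit. The replicate block changed no call of a member other than AGT. Same-numbered samples correlated in their deviations at -0.425 to 0.167 over 12 pairs, so the numbers were not taken as pairs. With 3 arrays per group and low signal of AGTR1, ACE and ANPEP, small changes in those genes may not be seen.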
